A study of Mus musculus with 12 samples.

Results

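The 10 circadian clock genes Arntl (also called Bmal1), Clock, Per1, Per2, Per3, Cry1, Nr1d1, Nr1d2, Dbp and Tef were followed across 12 mouse livers. They were chosen by symbol, mapped from the Ensembl identifiers of the deposited count table, and all 10 were found among its 51912 genes. All 10 also passed the filter on low counts that left 18098 genes for testing. The livers came from 4 groups of 3 animals: Mlkl-/- mice on a high-fat diet (HFD), wild-type mice on HFD, Mlkl-/- mice on normal chow (ND) and wild-type mice on ND. Mlkl encodes the executor of necroptosis, an inflammatory form of programmed cell death. Per the labels, every animal had been on its diet for 25 weeks, while the design text of the series allows 16 weeks as well. Feeding began at 8 to 9 weeks of age, and the HFD held 36% fat, with 59% of its energy from lipid. Livers were taken from fed animals that had been selected by mean organ weight. The strain, the sex, the way the Mlkl allele was made and the time of day at which livers were taken are not stated in the sources used here.

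The mammalian clock is a transcriptional feedback loop that runs in nearly every cell. ARNTL and CLOCK bind E-box sequences as a pair and switch on the Per and Cry genes, whose proteins return to block the pair. In a second loop the same pair switches on Nr1d1 and Nr1d2, which encode the nuclear receptors REV-ERB alpha and beta, and these repress Arntl through ROR response elements (ROREs). Dbp and Tef encode output factors that bind D-box sequences and pass the rhythm on to genes of liver metabolism. In mouse liver the Arntl transcript runs opposite in time of day to those of Dbp and Nr1d1, and feeding is a strong time cue for the liver clock.

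The results turn on Arntl, which varied against Per3 and Tef, and on Nr1d1, which varied least of the 10 genes. Promoter sequences of the loop are shown for this reason. Each covers 250 bases before to 50 bases after a RefSeq start site in build GRCm38.p6, is written 5′ to 3′ on the strand of the gene, and has motif matches in capitals. The windows are chr7:113207261-113207560 on the plus strand for Arntl (the second of its start sites), chr4:151044616-151044915 on the minus strand for Per3, chr15:81811164-81811463 on the plus strand for Tef (the second of its start sites) and chr11:98775328-98775627 on the minus strand for Nr1d1. The capitals mark a RORE core in Arntl, a pair of D-boxes in Per3, an E-box in Tef and an E′-box, read on the opposite strand, in Nr1d1.
Arntl: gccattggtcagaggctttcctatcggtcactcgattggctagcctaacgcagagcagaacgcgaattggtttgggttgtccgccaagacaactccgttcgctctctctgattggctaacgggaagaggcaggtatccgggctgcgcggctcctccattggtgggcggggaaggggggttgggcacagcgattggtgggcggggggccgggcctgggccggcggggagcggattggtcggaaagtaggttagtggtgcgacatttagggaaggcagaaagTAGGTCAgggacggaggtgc
Per3: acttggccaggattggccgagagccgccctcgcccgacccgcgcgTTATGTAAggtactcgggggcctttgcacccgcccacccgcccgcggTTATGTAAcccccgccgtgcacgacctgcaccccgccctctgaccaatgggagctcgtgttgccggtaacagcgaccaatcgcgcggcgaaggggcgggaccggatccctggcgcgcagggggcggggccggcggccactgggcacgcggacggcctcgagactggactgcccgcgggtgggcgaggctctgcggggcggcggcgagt
Tef: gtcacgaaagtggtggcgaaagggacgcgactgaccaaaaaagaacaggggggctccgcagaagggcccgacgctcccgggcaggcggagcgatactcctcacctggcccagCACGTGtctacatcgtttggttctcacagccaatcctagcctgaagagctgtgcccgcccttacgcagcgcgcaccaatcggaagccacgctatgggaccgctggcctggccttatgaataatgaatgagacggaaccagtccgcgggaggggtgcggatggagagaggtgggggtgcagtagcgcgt
Nr1d1: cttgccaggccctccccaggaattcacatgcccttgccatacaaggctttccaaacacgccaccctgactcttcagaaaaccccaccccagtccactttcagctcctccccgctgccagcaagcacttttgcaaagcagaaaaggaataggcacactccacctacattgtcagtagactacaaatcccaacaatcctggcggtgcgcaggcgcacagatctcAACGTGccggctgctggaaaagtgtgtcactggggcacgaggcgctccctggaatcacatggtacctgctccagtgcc

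A search of both strands covered 4 motifs: the E-box CACGTG, the E′-box CACGTT, the D-box TTANGTAA and the RORE core TAGGTCA, none of which overlapped another in these windows. RefSeq windows were matched for 9 of the 10 genes (14 windows), and 6 genes held a match in 7 windows. Arntl carried its RORE core from position 31, after its second start site, and the window of its first start site held no match. Per3 carried its D-boxes at positions -205 and -158 from the start site. Tef carried an E-box in both of its windows, Per1 an E-box in 1 window, and Cry1 an E-box and an E′-box. The windows of Clock, Nr1d2 and Dbp held none of these letters. Of all 32851 promoter windows searched, 7.15% held the E-box, 4.68% the E′-box, 2.32% the D-box and 2.61% the RORE core. A match describes the letters of the window and is not a measured binding site.

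Expression was measured by 3′ mRNA sequencing, in which reads come from the 3′ end of polyadenylated transcripts, and values are CPM, counts scaled to a common library size with TMM factors. Library totals ran from 19435391 to 32120426 counts. Mlkl had 9 to 34 counts in the 6 Mlkl-/- livers and 72 to 252 counts in the 6 wild-type livers, with no overlap. Whether the counted 3′ end lies in the deleted part of the gene is not given. Hepatocyte markers summed to 78700 to 101000 CPM in Mlkl-/- HFD livers, 58500 to 81600 CPM in wild-type HFD livers, 74300 to 105000 CPM in Mlkl-/- ND livers and 97800 to 102000 CPM in wild-type ND livers, and 8 of the 9 markers were matched. A whole liver was sampled, so fewer cells of a type and less RNA per cell cannot be told apart. A number in the titles that follows the diet, of unstated meaning, divides every group (23 or 25 against 27 or 29) and is called the title code here. The 3 animals of a group carry separate numbers and were taken as replicates.

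The activator pair varied most within the Mlkl-/- ND group. Arntl had 2.00, 1.83 and 1.9 CPM in Mlkl-/- HFD livers and 2.44, 1.91 and 0.964 CPM in wild-type HFD livers, against 1.18, 4.74 and 11.8 CPM in Mlkl-/- ND livers and 2.65, 2.11 and 1.87 CPM in wild-type ND livers. Mlkl-/- ND replicates 2 and 3 were the highest of all 12 livers, while replicate 1 of the same group was below every wild-type ND liver. Arntl counts were low, 20 to 298 per library, so counting error adds to its spread. Clock, whose product pairs with ARNTL, had 36.4, 25.5 and 48.2 CPM in Mlkl-/- HFD livers and 37.8, 35.1 and 32.9 CPM in wild-type HFD livers, against 29.7, 62.1 and 74.3 CPM in Mlkl-/- ND livers and 47.3, 37.7 and 51.4 CPM in wild-type ND livers. The same pair of Mlkl-/- ND livers stood highest for Clock.

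Among the repressors of the pair, Per3 showed the reverse order. Per3 had 15.3, 25.8 and 15.5 CPM in Mlkl-/- HFD livers and 22.2, 23.4 and 28.2 CPM in wild-type HFD livers, against 17.9, 8.86 and 2.92 CPM in Mlkl-/- ND livers and 11.4, 21.7 and 22.0 CPM in wild-type ND livers. Mlkl-/- ND replicates 2 and 3 were the lowest of 12, and the 3 wild-type HFD livers were all above the 3 wild-type ND livers. Per2 had 13.1, 21.9 and 8.70 CPM in Mlkl-/- HFD livers and 14.1, 16.0 and 15.5 CPM in wild-type HFD livers, against 17.6, 9.66 and 7.11 CPM in Mlkl-/- ND livers and 9.87, 16.7 and 15.6 CPM in wild-type ND livers. Its lowest value was again in Mlkl-/- ND replicate 3, within a narrower overall range. Per1, which besides the clock responds directly to hormones and other acute signals, had 14.0, 28.4 and 9.85 CPM in Mlkl-/- HFD livers and 11.6, 7.74 and 24.0 CPM in wild-type HFD livers, against 24.3, 18.3 and 16.6 CPM in Mlkl-/- ND livers and 13.5, 24.4 and 16.6 CPM in wild-type ND livers. For Per1 the Mlkl-/- ND replicates 2 and 3 lay in the middle of the order, and each group held 1 liver of 24.0 CPM or more. Cry1 had 53 to 149 counts and stayed between 2.35 CPM (Mlkl-/- ND replicate 2) and 7.11 CPM (Mlkl-/- HFD replicate 1).

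The receptors of the second loop were the steadiest members. Nr1d1 had 72.3, 62.3 and 61.5 CPM in Mlkl-/- HFD livers and 63.8, 71.4 and 61.2 CPM in wild-type HFD livers, against 54.9, 64.8 and 47.5 CPM in Mlkl-/- ND livers and 70.5, 70.9 and 46.5 CPM in wild-type ND livers. The highest liver was 1.55-fold over the lowest, and all 4 groups overlapped. Nr1d2 ranged from 73.0 CPM (wild-type ND replicate 1) to 131 CPM (wild-type ND replicate 3), so its extremes lay in a single group. In the GENCODE annotation of GRCm38, Nr1d1 (ENSMUSG00000020889, chr11:98767932-98775333, minus strand) shares 1075 bases with Thra on the opposite strand, 263 of them exonic in both genes. The strand setting of the counting is not stated, so reads of Nr1d1 and Thra in those bases cannot be told apart.

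The output factors followed Per3. Dbp had 119, 132 and 73.0 CPM in Mlkl-/- HFD livers and 96.0, 100 and 124 CPM in wild-type HFD livers, against 81.5, 41.6 and 10.5 CPM in Mlkl-/- ND livers and 62.7, 103 and 74.3 CPM in wild-type ND livers. The 2 lowest livers were Mlkl-/- ND replicates 3 and 2, and the other 10 lay between 62.7 and 132 CPM. Tef had 141, 197 and 128 CPM in Mlkl-/- HFD livers and 138, 133 and 194 CPM in wild-type HFD livers, against 155, 108 and 51.7 CPM in Mlkl-/- ND livers and 107, 171 and 161 CPM in wild-type ND livers. Mlkl-/- ND replicate 3 was again the lowest, whereas replicate 2 was level with wild-type ND replicate 1. Dbp (ENSMUSG00000059824, chr7:45705088-45710203, plus strand) shares 539 exonic bases with Sphk2 on the opposite strand, with the same limit as for Nr1d1. Tef shares 193 exonic bases with the antisense gene Gm17597. Those bases lie at the 5′ start of Tef, away from the 3′ end that the reads come from.

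**Figure D1:**
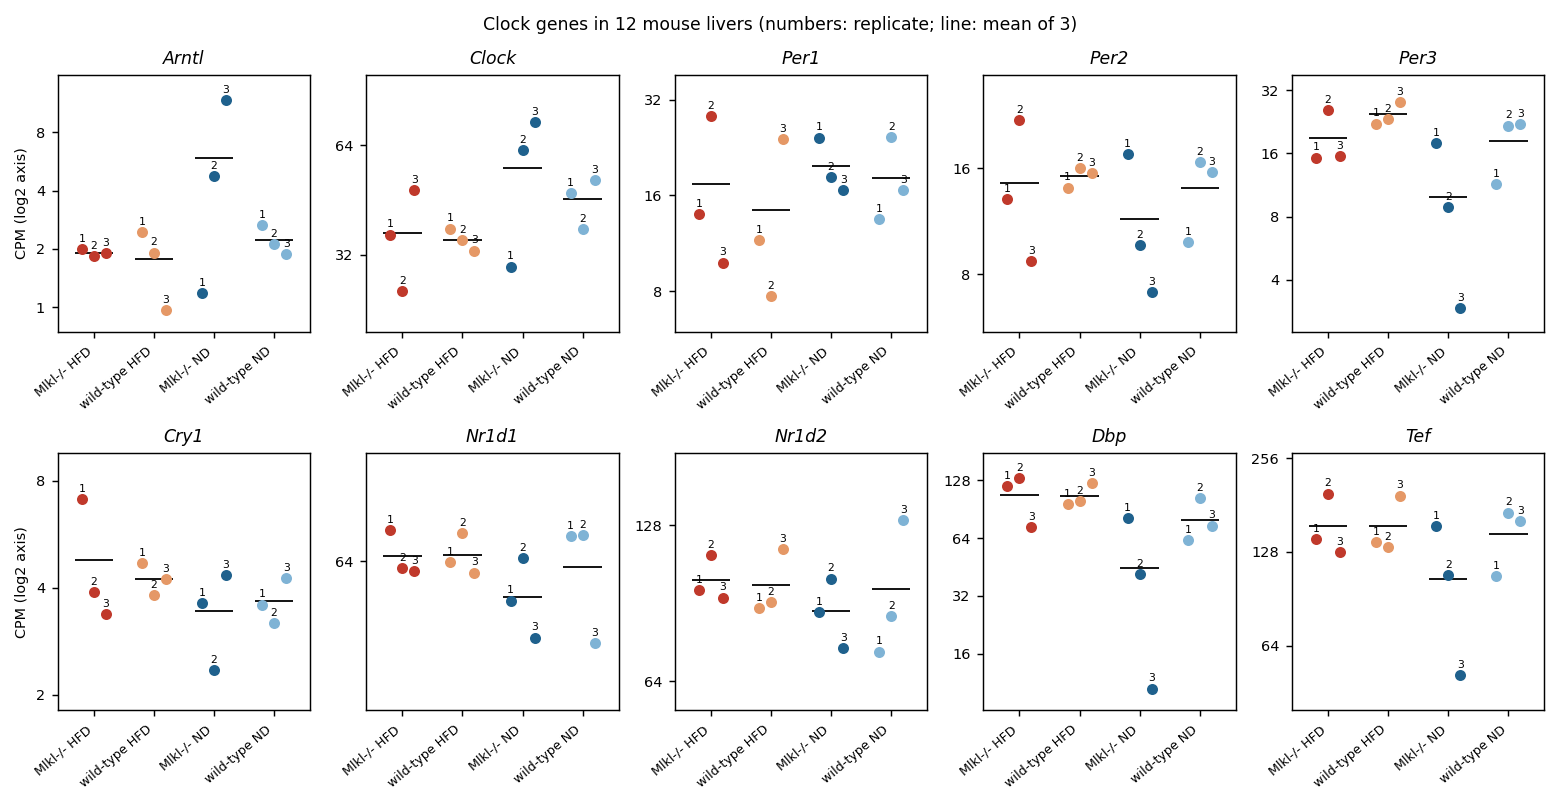
CPM of the 10 clock genes in each of 12 livers, on a log2 axis whose range differs between panels; points are livers, numbers are replicates and lines are means of 3. Mlkl-/- ND replicate 3 is at the top for Arntl (11.8 CPM) and Clock (74.3 CPM) and at the bottom for Per2, Per3, Dbp and Tef, whereas Nr1d1 stays between 46.5 and 72.3 CPM.

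Over the 12 livers the ratio of the highest to the lowest value was 12.5 for Dbp, 12.2 for Arntl and 9.65 for Per3. It was 3.82 for Tef, 3.67 for Per1, 3.08 for Per2, 3.03 for Cry1 and 2.92 for Clock, and 1.80 for Nr1d2 and 1.55 for Nr1d1. For Dbp, Arntl and Per3, Mlkl-/- ND replicate 3 was an end of the span. In Mlkl-/- ND replicate 3, Arntl was 6.18-fold over the median of the 10 livers left when this liver and replicate 2 of its group are set aside. In the same liver Clock was 2.00-fold over that median. The median of those 10 livers was 9.31-fold over the value in Mlkl-/- ND replicate 3 for Dbp, 7.46-fold for Per3, 2.86-fold for Tef and 2.19-fold for Per2. This liver was the highest or the lowest of 12 in 6 of the 10 clock genes, against 22.1% of the tested genes. Mlkl-/- HFD replicate 2 was at an extreme in 5 of the 10, against 17.7% of the tested genes. It was the highest for Per1, Per2, Dbp and Tef and the lowest for Clock. Over the 12 livers the share of tested genes at an extreme ran from 8.71% to 27.7%, the last in Mlkl-/- ND replicate 1, where none of the 10 clock genes was at an extreme.

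The spread between livers of the same group was described as a standard deviation of log2 CPM within groups, on 8 degrees of freedom. It was 0.89 for Arntl, 0.81 for Dbp and 0.74 for Per3, against a median of 0.29 over all tested genes. These values lay at percentiles 95.9, 94.2 and 92.3 of the tested genes. Among genes of similar level, within a 1.5-fold window of mean CPM, they lay at percentiles 97.1, 99.0 and 98.9. Nr1d1 and Nr1d2, with 0.22 and 0.28, lay at percentiles 33.7 and 47.5 of the tested genes. Among genes of similar level they lay at percentiles 65.4 and 78.4, so they were steady against the other members but not for their level. Without Mlkl-/- ND replicates 2 and 3 the standard deviation fell to 0.41 for Arntl, 0.35 for Dbp and 0.41 for Per3. That of Per1, at 0.70 without them against 0.62 with them, did not fall. Replicate 1 is then at its own group mean, so the standard deviation rests on the other groups only. With all livers, the log2 deviation of Arntl from its group mean was -1.72 in replicate 1, 0.21 in replicate 2 and 1.51 in replicate 3. The fall therefore cannot be assigned to replicates 2 and 3 alone.

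**Figure D2:**
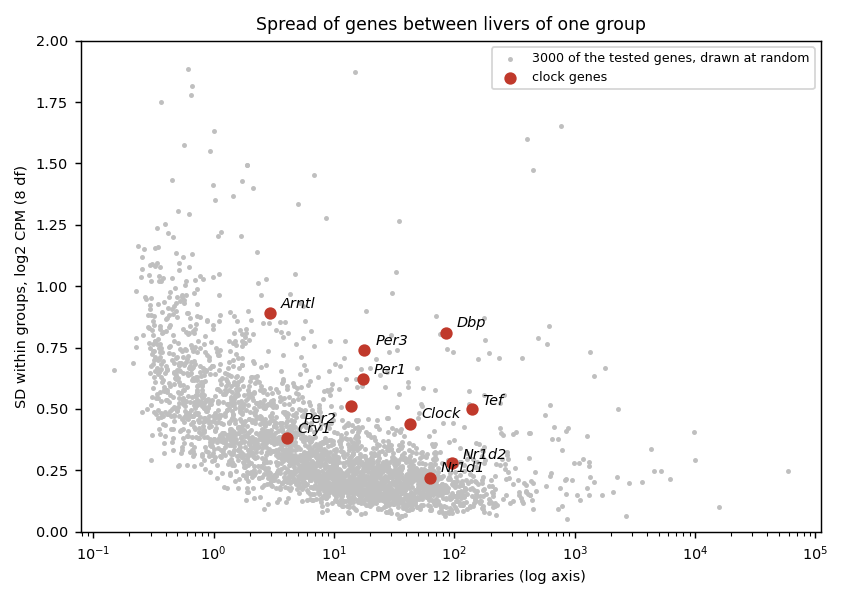
Standard deviation of log2 CPM within groups (8 degrees of freedom) against the mean CPM over 12 libraries on a log axis, for the 10 clock genes and for 3000 tested genes drawn at random. Arntl, Dbp and Per3 lie high for their level, with 0.89, 0.81 and 0.74. Nr1d1 has the lowest value of the 10 clock genes, 0.22, but lies at percentile 65.4 among genes of similar level.

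Relative to the mean of all livers, the log2 level of Dbp minus that of Arntl puts each liver on 1 scale. It was -5.09 in Mlkl-/- ND replicate 3, -1.82 in replicate 2 and 1.08 in replicate 1 of that group. The Mlkl-/- HFD livers had 0.90, 1.17 and 0.27, and the wild-type HFD livers had 0.31, 0.72 and 1.95. The wild-type ND livers had -0.41, 0.62 and 0.32. The Mlkl-/- ND group held the lowest and the highest of the 6 ND livers, and the 6 HFD livers were all above 0. Mlkl-/- ND replicates 2 and 3 share the title code 27 and carry the consecutive animal numbers 1153 and 1154, while replicate 1 has the code 23 and the number 859. Wild-type ND replicate 3 has the code 27 as well, and its Arntl, at 1.87 CPM, was the lowest of its group. The hepatocyte markers of Mlkl-/- ND replicates 2 and 3 summed to 105000 and 95000 CPM, against 74300 CPM in replicate 1. Kupffer cell markers, 6 of 6 above 0 in every liver, summed to 186 and 215 CPM in replicates 2 and 3, against 104 CPM in replicate 1. The part of code, animal or cell content in these levels was not tested.

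The relation of Arntl to the other 9 clock genes was tested across the 12 livers as deviations from group means, with a two-sided exact permutation test within groups and adjustment over the 9 relations. Per3 (r = -0.88, adjusted p = 0.0347 by exact permutation), Tef (r = -0.87, adjusted p = 0.0417 by exact permutation) and Per2 (r = -0.67, adjusted p = 0.0417 by exact permutation) varied inversely with Arntl. Their rank correlations were -0.82, -0.80 and -0.72, with adjusted permutation p-values of 0.00694, 0.0463 and 0.0463. The unadjusted permutation p-values of r were 0.00386 for Per3, 0.0131 for Tef and 0.0139 for Per2. Those of rho were 0.000772, the smallest that 1296 permutations can give, for Per3, 0.0116 for Tef and 0.0154 for Per2. Dbp had an r as low as that of Tef (-0.87, rho -0.65) but did not pass, with adjusted permutation p-values of 0.102 for r and 0.0923 for rho. Clock varied with Arntl in the same direction without passing (r = 0.76, rho = 0.64, adjusted permutation p-values 0.059 and 0.0856). Per1 had r = -0.44 and rho = -0.66 (adjusted permutation p-values 0.0694 and 0.0625), and Nr1d2 had r = -0.40 and rho = -0.71 (adjusted permutation p-values 0.219 and 0.0856). The unadjusted permutation p-values of r were 0.0262 for Clock, 0.0386 for Per1, 0.0679 for Dbp and 0.171 for Nr1d2. Cry1 (r = 0.12, rho = 0.09, adjusted permutation p-values 0.971 and 0.843) and Nr1d1 (r = -0.02, rho = 0.23, adjusted permutation p-values 0.971 and 0.638) did not pass either.

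The size of these correlations rested on the Mlkl-/- ND group. The livers farthest from the median of Arntl were Mlkl-/- ND replicate 1 (-1.72, log2 deviation) and replicate 3 (1.51). Leaving out both leaves 1 liver in the Mlkl-/- ND group, which then sits at its own group mean. Only the other groups, with 216 permutations, inform r in that case, and Per3 had the smallest unadjusted p these can give. Without both, over 10 livers, r was -0.53 for Per3 (adjusted p = 0.0417 by exact permutation), -0.69 for Tef (adjusted p = 0.167 by exact permutation), -0.26 for Per2, -0.40 for Dbp and 0.19 for Clock. The relation with Per3 kept its side of the threshold, those with Tef and Per2 did not, and Nr1d2 passed with r = -0.67 (adjusted p = 0.0417 by exact permutation). Within each title code, r was taken on log2 CPM without removal of group means, with permutation over all 6 livers. Those r hold differences between groups as well, unlike the r above. Over all 12 livers without that removal, r was -0.91 for Per3, -0.90 for Dbp, -0.91 for Tef, -0.73 for Per2 and 0.81 for Clock. The 6 livers of the higher title code include Mlkl-/- ND replicates 2 and 3. Within them r was -0.98 for Per3, -0.97 for Dbp, -0.97 for Tef, -0.79 for Per2 and 0.90 for Clock. Within the 6 livers of the lower code it was -0.25, -0.16, -0.49, -0.62 and 0.72 for the same genes, and none of the 9 relations passed there. Per3, Tef, Dbp and Clock passed by Pearson r within the higher code and not within the lower, no rank correlation passed within either, and the difference between codes was not tested.

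**Figure D3:**
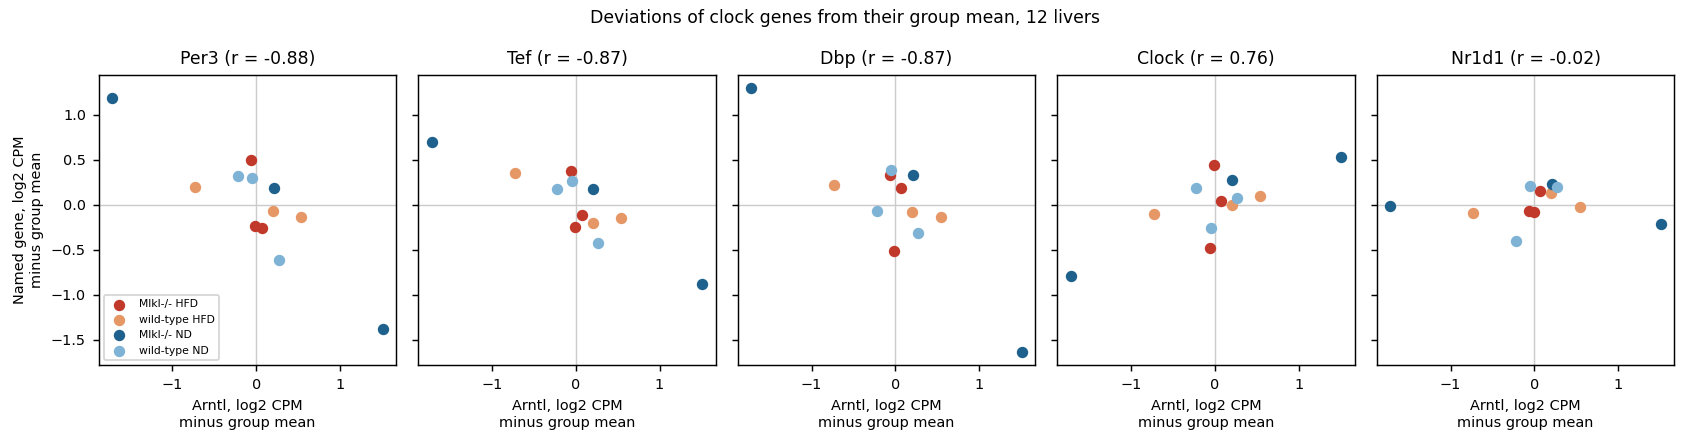
Deviation of log2 CPM from the group mean for Per3, Tef, Dbp, Clock and Nr1d1 (vertical) against that of Arntl (horizontal); each point is a liver, coloured by group, and r is over 12 livers. Per3, Tef and Dbp slope down (r = -0.88, -0.87 and -0.87), Clock slopes up (0.76), Nr1d1 shows no slope (-0.02), and the outermost points are Mlkl-/- ND livers.

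The genes most like Arntl and Dbp were taken by Pearson r of the same deviations over the 12 livers, among named genes with a mean of at least 5 CPM. Of 9108 genes compared with Arntl, Arnt (0.97), Elp2 (0.95), Xpo4 (0.95), Elmsan1 (0.95) and Tnip2 (0.95) came first, and Clock, with 0.76, was at rank 359. Of 9107 genes compared with Dbp, Wee1 (0.98), Slc2a2 (0.95), Syde2 (0.95), Zfyve21 (0.95) and Spag7 (0.95) came first. Per3 (0.94) and Tef (0.93) followed at ranks 10 and 12. All points share the same libraries and the same pair of outlying livers. Leaving out Mlkl-/- ND replicates 2 and 3 puts replicate 1 at its own group mean, so only the other groups inform r. The r of Arnt with Arntl was then 0.83, at rank 96. That of Wee1 with Dbp was 0.87, at rank 114. Among the first 5 genes of each comparison the ranks then ran from 37 for Spag7 to 846 for Syde2. Wee1, which encodes a kinase that holds back mitosis and is a textbook target of the clock in liver, ranged from 0.79 CPM in Mlkl-/- ND replicate 3 to 18.2 CPM in wild-type HFD replicate 3.

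In Mlkl-/- livers, HFD against ND changed none of the 10 clock genes in edgeR's quasi-likelihood test, against 0.359% of the tested genes. Arntl averaged 1.91 ± 0.0883 CPM in Mlkl-/- HFD livers and 5.90 ± 5.39 CPM in Mlkl-/- ND livers (SD, n = 3 each). Its log2 difference was -1.63 ± 0.60 (SE; edgeR unadjusted p = 0.0184, adjusted p = 0.262), and it was the only member at an unadjusted p under 0.05, against 13.6% of the tested genes. Dbp averaged 108 ± 30.8 CPM in Mlkl-/- HFD livers and 44.6 ± 35.6 CPM in Mlkl-/- ND livers (SD, n = 3 each), a log2 difference of 1.28 ± 0.58 (SE; edgeR adjusted p = 0.378). The differences of Per3 (0.94 ± 0.53), Clock (-0.59 ± 0.29), Tef (0.57 ± 0.34) and Cry1 (0.47 ± 0.30) did not pass either. No member separated the 3 HFD from the 3 ND livers, against 15.5% of the tested genes. DESeq2 and limma-voom called none of the 10, with 3 and 2 at an unadjusted p under 0.05. DESeq2 called 514 of all genes here, against 65 by edgeR. The share of all genes at an unadjusted p under 0.05 was taken for edgeR only, in this and every other comparison. Member counts by DESeq2 and limma-voom at that cut therefore have no background beside them. Without Mlkl-/- ND replicate 1, Arntl (-2.09, edgeR adjusted p = 0.0178) and Clock (-0.87, edgeR adjusted p = 0.0405) passed. That fit called 729 of all genes, against 65 with all 12 livers. Without replicates 2 and 3 the differences of Arntl and Clock were 0.69 and 0.30.

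In wild-type livers, HFD against ND called none of the 10 clock genes with edgeR, against 4.23% of the tested genes, and none had an unadjusted p under 0.05, against 20.5%. DESeq2 and limma-voom also called 0 and had 0 at an unadjusted p under 0.05. Per3 was the 1 member whose groups did not overlap, against 29.1% of the tested genes. It averaged 24.6 ± 3.17 CPM in wild-type HFD livers and 18.3 ± 6.03 CPM in wild-type ND livers (SD, n = 3 each), a log2 difference of 0.42 ± 0.51 (SE; edgeR adjusted p = 0.71). Dbp had 107 ± 15 CPM in wild-type HFD livers and 80.0 ± 20.7 CPM in wild-type ND livers (SD, n = 3 each), a difference of 0.42 ± 0.57 (SE; edgeR adjusted p = 0.749). The 10 differences ran from -0.37 for Clock to 0.42, with a median of 0.07 against -0.01 over all tested genes. For Nr1d1 the interval of the difference was narrow, 0.06 with a 95% interval of -0.32 to 0.45. For Arntl it was wide, -0.30 with a 95% interval of -1.70 to 1.10. Recruited macrophage markers, 6 of 6 above 0, summed to 8.29 to 33.7 CPM in wild-type HFD livers and 3.70 to 5.38 CPM in wild-type ND livers, and hepatocyte markers were lower on HFD, as given above.

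Of the 4 comparisons of 3 against 3 livers, Mlkl-/- against wild-type on HFD gave the narrowest range of differences. None of the 10 members was called by edgeR, against 0.0276% of the tested genes, and none had an unadjusted p under 0.05, against 15.5%. DESeq2 and limma-voom gave 0 in both counts. Differences ran from -0.38 for Per3 to 0.28 for Per1, with a median of 0.02 against 0.01 over all tested genes. Dbp averaged 108 ± 30.8 CPM in Mlkl-/- HFD livers and 107 ± 15 CPM in wild-type HFD livers (SD, n = 3 each). Tef averaged 156 ± 36.7 CPM in Mlkl-/- HFD livers and 155 ± 34.3 CPM in wild-type HFD livers (SD, n = 3 each). The 95% interval of the log2 difference was -0.39 to 0.39 for Nr1d1 and -0.43 to 0.48 for Nr1d2, but -1.30 to 1.33 for Dbp and -1.32 to 1.51 for Arntl. Every member overlapped between the genotypes, against 21.4% of the tested genes that did not.

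On ND, Mlkl-/- against wild-type also called none of the 10, against 0.00553% of the tested genes. Arntl averaged 5.90 ± 5.39 CPM in Mlkl-/- ND livers and 2.21 ± 0.401 CPM in wild-type ND livers (SD, n = 3 each). Its log2 difference was 1.43 ± 0.59 (SE; edgeR unadjusted p = 0.0325, adjusted p = 0.836), the only member under 0.05 before adjustment, against 5.51% of the tested genes. Per3 (-0.90 ± 0.53), Dbp (-0.85 ± 0.58) and Tef (-0.49 ± 0.34) had negative differences that did not pass. DESeq2 and limma-voom called 0, with 1 and 2 members at an unadjusted p under 0.05, and no member separated the groups, against 10.5% of the tested genes. Without Mlkl-/- ND replicates 2 and 3, which leaves 1 liver in that group, the differences were -0.89 for Arntl, -0.02 for Per3, 0.04 for Dbp and 0.09 for Tef.

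The diet effect did not differ between genotypes past the threshold for any member. The interaction was -1.33 ± 0.85 for Arntl (SE; edgeR adjusted p = 0.608) and 0.86 ± 0.81 for Dbp (SE; edgeR adjusted p = 0.737), and 0 members were called, against 0% of the tested genes. None had an unadjusted p under 0.05 by edgeR, DESeq2 or limma-voom, against 10.4% of the tested genes by edgeR. Averaged over genotypes, HFD against ND called 0 of 10, against 7.19% of the tested genes. Arntl (-0.97 ± 0.43, edgeR unadjusted p = 0.042, adjusted p = 0.204) and Clock (-0.48 ± 0.21, edgeR unadjusted p = 0.0386, adjusted p = 0.193) were under 0.05 before adjustment, against 22.0% of the tested genes. DESeq2 and limma-voom called 0, with 3 each at an unadjusted p under 0.05. Without Mlkl-/- ND replicate 1 both passed, Arntl at -1.18 (edgeR adjusted p = 0.0127) and Clock at -0.61 (edgeR adjusted p = 0.018). That fit called 2029 of all genes, against 1302 with this liver included. Averaged over diets, Mlkl-/- against wild-type called 0 of 10, against 0.0166% of the tested genes. None had an unadjusted p under 0.05 by edgeR or DESeq2 and 1 did by limma-voom, against 10.6% of the tested genes by edgeR. Libraries of the higher against the lower title code gave 0 of 10 called, against 0% of the tested genes. Clock (0.47 ± 0.18, edgeR unadjusted p = 0.024, adjusted p = 0.357) was the 1 member under 0.05 before adjustment by edgeR, against 12.0% of the tested genes, and DESeq2 and limma-voom called 0 with 1 each.

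**Figure D4:**
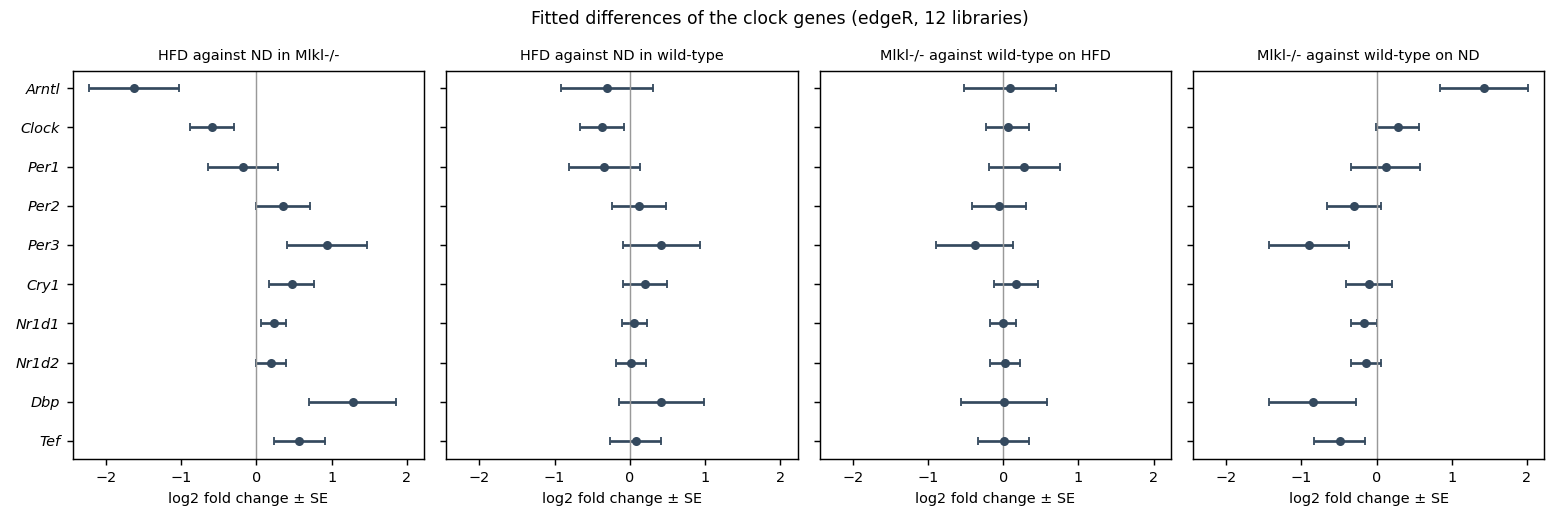
Fitted log2 differences of the 10 clock genes with their standard errors (edgeR, 12 libraries, 3 per group) in 4 comparisons. The comparisons that include the Mlkl-/- ND group hold the largest differences (Arntl -1.63 and 1.43, Dbp 1.28), all differences of Mlkl-/- against wild-type on HFD lie between -0.38 and 0.28, and none of the 10 genes passed in any panel.

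Beyond the 10 members, 17 other regulators of the clock and 16 liver outputs under clock control were listed, and none of either list was called in any of the 8 comparisons. For HFD against ND in Mlkl-/- livers their median log2 differences were 0.02 and 0.27, against -0.02 over all tested genes, and in wild-type livers 0.13 and 0.14, against -0.01. The named regulators, those of highest mean CPM, were Bhlhe40, a repressor of the activator pair, and Rora, an activator of Arntl through ROREs. Bhlhe40 differed by 0.02 ± 0.28 for HFD against ND in Mlkl-/- livers and by 0.13 ± 0.28 in wild-type livers (SE; edgeR adjusted p = 0.985 and 0.852). Rora differed by -0.20 ± 0.26 and -0.06 ± 0.26 in the same order (SE; edgeR adjusted p = 0.769 and 0.929). Of the outputs, Cyp2a5, a drug-metabolizing cytochrome P450, differed between Mlkl-/- and wild-type livers by -0.43 ± 0.43 on HFD and by -0.70 ± 0.43 on ND (SE; edgeR adjusted p = 0.665 and 0.951). Upp2, a uridine phosphorylase, differed by 0.42 ± 0.75 on HFD and by -0.29 ± 0.75 on ND (SE; edgeR adjusted p = 0.831 and 0.993).

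The liver that stood apart in the members did so in these lists as well. Mlkl-/- ND replicate 3 was the highest or lowest of 12 in 11 of the 17 regulators (3 highest and 8 lowest) and in 10 of the 16 outputs (2 highest and 8 lowest), against 22.1% of the tested genes. Its lowest regulators included Bhlhe41, a relative of Bhlhe40, at 1.15 CPM, against a median of 3.71 CPM in the 10 livers other than it and replicate 2. Nfil3, which encodes a repressor that competes with DBP and TEF at D-boxes, was at its highest there, with 20.6 CPM. Nfil3, singled out after its values were seen, had 16.5, 7.94 and 15.5 CPM in Mlkl-/- HFD livers and 7.01, 7.41 and 5.06 CPM in wild-type HFD livers, against 13.4, 12.4 and 20.6 CPM in Mlkl-/- ND livers and 9.44, 11.0 and 9.95 CPM in wild-type ND livers. The Mlkl-/- livers were above the wild-type livers without overlap on both diets. Taking each diet alone, 21.4% of the tested genes on HFD and 10.5% on ND had no overlap, in either direction. Averaged over diets the log2 difference was 0.82 ± 0.18 (SE; edgeR unadjusted p = 0.000495, adjusted p = 0.134, called by DESeq2 with adjusted p = 0.00827). DESeq2 called 207 of all genes in this comparison, against 3 by edgeR. The call of Nfil3 depended on the setting, with an adjusted p between 0.00827 and 0.364 over the alternatives.

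**Figure D5:**
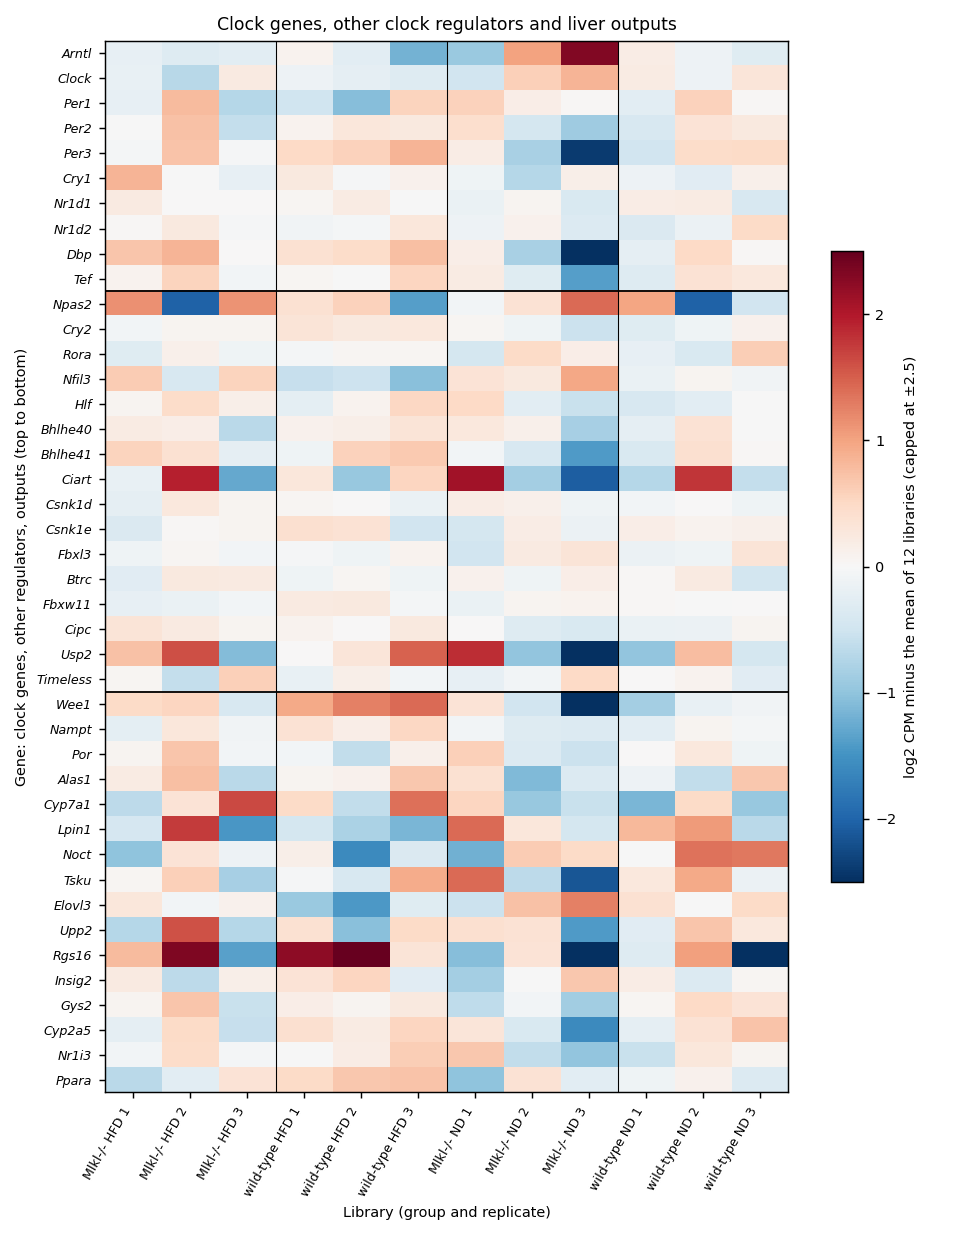
Log2 CPM minus the mean of 12 libraries (colour, capped at ±2.5) for the 10 clock genes, 16 of the 17 other regulators and 16 liver outputs, with libraries in columns by group. The column of Mlkl-/- ND replicate 3 holds the strongest colours among the clock genes, red for Arntl and blue for Dbp and Per3, and red for Nfil3 and blue for Wee1 below them.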

How the data were processed

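Liver RNA of 12 mice was made into 3′ mRNA libraries with Lexogen's QuantSeq kit and sequenced on a NextSeq instrument, per the labels' protocols. Per the submitters' processing notes, the tools were cutadapt 1.9, HISAT2, featureCounts and limma, with build mm10. The strand setting, the gene annotation and the treatment of multi-mapped reads are not stated there. The authors deposited raw counts per Ensembl gene and library, with no normalization.

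The 10 members and all lists were chosen with earlier results of these data known. Groups follow the genotype and diet labels, and within each group all pairs of libraries differed by more than sampling noise (chi-square per degree of freedom 17.9 to 125). The highest values, 105 and 125, were those of Mlkl-/- ND replicate 1 against replicates 2 and 3. Symbols were found for 51633 of 51912 identifiers, and positions come from GENCODE M21. In R 4.3.3, edgeR 4.0.16 scaled libraries by TMM (factors 0.922 to 1.16), kept 18098 genes by filterByExpr (10 counts, 15 in total) and fitted 1 mean per group over all 12 libraries with robust quasi-likelihood dispersions (8 residual degrees of freedom). Benjamini-Hochberg adjustment of p-values covered all 18098 genes, and a gene was called under 0.05. The steps were tested on simulated data. Log2 CPM used a prior count of 2, and levels printed as CPM had none. Counting errors cover sampling only, since no molecular identifiers are stated.

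The text names all members. Of the regulator and output lists it names the called genes or, where fewer than 2 were called, the 2 of highest mean CPM, and it names the 5 genes most like Arntl and like Dbp. Bhlhe41, Nfil3, Wee1, Ciart and Usp2 were named after their values were seen, and 1 regulator of the list is not reported here by name. Lists of 8 temperature cue genes and 7 glucocorticoid targets gave 1 gene lower on HFD than on ND in Mlkl-/- livers and on average over genotypes, from the first list, and 0 called genes in every other comparison. Markers of 9 liver cell types were summed per library. DESeq2 1.42.0, limma 3.58.1 (voom), other scalings, filters and terms, and leaving out each library served as alternatives.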

Additional observations from a re-analysis of the deposited data

How the results depend on the processing

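Of the 8 comparisons, none called a clock gene under the other scalings, the stricter filter of 5 CPM in 3 libraries, DESeq2, limma-voom, non-robust dispersions, fits of only the groups compared, or the title code or 8-locus level as a term. The exception was the title code comparison with no filter on low counts, which called 2 (Clock, adjusted p = 0.0144, and Dbp, adjusted p = 0.000257, edgeR). That setting called 444 of all genes in this comparison, against 0 in the main fit. The differences stayed at 0.47 for Clock and -0.62 for Dbp. Their SE fell from 0.18 to 0.12 for Clock and from 0.41 to 0.12 for Dbp. Leaving out each library in turn gave 0 to 2 called members for HFD against ND in Mlkl-/- livers and 0 to 2 averaged over genotypes, both above 0 only without Mlkl-/- ND replicate 1, and 0 in the other 6 comparisons. Numbers of all called genes moved more widely: with main values of 65, 766 and 1302 for HFD against ND in Mlkl-/-, in wild-type and on average, they ran from 8 to 514, 158 to 1465 and 122 to 1980 under the alternatives, and from 13 to 729, 63 to 1233 and 616 to 2029 when a library was left out. For Mlkl-/- against wild-type on HFD, on ND and on average the values were 5, 1 and 3, with ranges of 2 to 398, 0 to 49 and 2 to 207, and for the interaction and the title code 0, with ranges of 0 to 58 and 0 to 444.

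Without Mlkl-/- ND replicates 2 and 3, an alternative chosen after seeing the data in which the 1 liver left is assumed to vary like the other groups, 26 of the 80 member differences changed sign, against 15 of 80 with the 8-locus level as a term and 0 to 9 under each other alternative. Of the differences larger than their SE, these were Arntl (0.69 for HFD against ND in Mlkl-/-, -0.89 for Mlkl-/- against wild-type on ND, 0.98 for the interaction, 0.20 for the average diet effect and -0.40 for the average genotype effect), Clock (0.30 for HFD against ND in Mlkl-/-), Dbp (0.04 for genotype on ND, -0.04 for the interaction, 0.02 for the average genotype effect), Tef (0.09 for genotype on ND, -0.09 for the interaction) and, outside the members, Wee1 (-0.09 for HFD against ND in Mlkl-/-). Smaller ones included Per2 (-0.28 for HFD against ND in Mlkl-/- and 0.34 for genotype on ND) and Clock (-0.60 for genotype on ND). The 8-locus level is the summed level of 8 loci that divides the libraries at 1000 CPM, and 5 of the 6 HFD livers and 1 ND liver are above that. With it as a term, of the differences larger than their SE, the average diet effect was 0.35 for Arntl, 0.02 for Clock and -0.04 for Tef, and the diet effect in wild-type was 0.10 for Clock, all reversed, and the cause was not tested. Nfil3 in Mlkl-/- against wild-type averaged over diets ran from 0.72 to 0.90 under the alternatives.

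Of the 9 relations of Arntl, 3 passed by Pearson r. With values not centred on groups 5 passed, with library size only 5 and without the 2 farthest livers 2. Within the lower title code 0 passed and within the higher 4, where r with Per1 was 0.07. The values within a title code were also not centred on groups. Without each library in turn 0 to 3 passed: 0 without any of the 3 wild-type ND livers, the 3 wild-type HFD livers, or Mlkl-/- HFD replicate 1 or 2, and 1 without Mlkl-/- ND replicate 3. Fewer livers leave fewer permutations, and without the 2 farthest livers the Mlkl-/- ND group no longer informs r. With 1 library left out, r with Per3 stayed between -0.91 and -0.72, but it was -0.53 without the 2 farthest livers. Within the lower title code, not centred on groups, r with Per3 was -0.25. Library size only moved the median of all genes by 0.196 for HFD against ND in wild-type and by -0.169 for Mlkl-/- against wild-type on HFD (log2). Arntl and Cry1 gave no value under the filter of 5 CPM. No paired analysis was possible because the replicate numbers follow accession order and pair no animals. Counts of 20 to 298 limit Arntl, and 3 livers per group limit every comparison.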

Other observations

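Per1 shared its 4 highest livers with Ciart, which encodes a repressor of the activator pair, and with Usp2, a clock-controlled deubiquitinase, as noted after the values were seen. The order within these 4 and below them differed between the genes. The shared livers were 1 in each group: Mlkl-/- HFD replicate 2, wild-type HFD replicate 3, Mlkl-/- ND replicate 1 and wild-type ND replicate 2. Ciart had 12.6, 4.72, 14.0 and 11.3 CPM in these livers in that order, and 0.711 to 3.92 CPM in the other 8. Usp2 had 38.7, 35.0, 45.4 and 21.5 CPM in the same livers, and 1.26 to 21.0 CPM in the other 8. Of these 4, 3 carry the lower title code. Ciart differed between the higher and the lower code by -2.09 ± 0.76 on the log2 scale (SE; edgeR adjusted p = 0.361). It passed with no filter on low counts (edgeR adjusted p = 3.96e-19), at the same difference with an SE of 0.21. That setting called 444 of all genes in this comparison, against 0 in the main fit. Over all alternatives the adjusted p of Ciart ran from 3.96e-19 to 0.896. The pattern crosses both genotypes and both diets and differs from that of Arntl, for which Mlkl-/- ND replicates 2 and 3 are the highest.

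Wee1 had 9.49, 9.82 and 5.11 CPM in Mlkl-/- HFD livers and 13.1, 16.3 and 18.2 CPM in wild-type HFD livers, against 8.64, 4.87 and 0.79 CPM in Mlkl-/- ND livers and 3.76, 5.94 and 6.38 CPM in wild-type ND livers. The wild-type HFD livers were all above the wild-type ND livers, with a log2 difference of 1.56 ± 0.60 (SE; edgeR adjusted p = 0.176). Of the tested genes, 29.1% had no overlap between these groups, in either direction. The adjusted p of Wee1 was 0.00315 in a fit of the compared groups only and 0.0126 without Mlkl-/- ND replicate 3 (edgeR). It ran from 0.00315 to 0.471 over all alternatives. The fit of the compared groups only called 1431 of all genes, against 766 in the main fit. The interaction of diet and genotype for Wee1 was -0.78 ± 0.84 (SE; edgeR adjusted p = 0.773).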
